A study of Mus musculus with 12 samples.

Results

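The miRNAs antisense to Rtl1, that is, both arms of miR-431, miR-433, miR-127, miR-434 and miR-136, were followed in the quadriceps through postnatal growth. These 10 mature miRNAs of 5 hairpins were chosen by name, as the Rtl1 antisense hairpins of the region, out of 1966 miRNAs in the count table. All 10 had counts in all 12 libraries and were among the 809 miRNAs tested. The libraries came from wild-type C57BL/6J mice at postnatal day 1 (P1), P5, P14 and P90, with 3 libraries per age, and no allele or treatment distinguished the groups. The comparison of ages asked which miRNAs change as the muscle matures. Since RNA was taken from whole muscle, a smaller number of cells of one type and less RNA per cell cannot be told apart.

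Rtl1, the gene of a retrotransposon-derived protein, lies in the imprinted Dlk1-Dio3 region of mouse chromosome 12 and is transcribed from the paternal allele. The opposite strand is transcribed from the maternal allele, and that antisense RNA (Rtl1as) carries a row of miRNA hairpins. Because each hairpin is cut from RNA that faces Rtl1 itself, its mature miRNAs pair with Rtl1 mRNA along their whole length, which can direct cleavage of the mRNA, whereas most animal miRNAs pair with their targets mainly through the seed. The region as a whole is known for strong activity in the fetus and in brain and for low activity in most adult tissues.

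The 5 hairpins lay on the plus strand of chromosome 12 within 4942 bases (GRCm38, RefSeq), in the order miR-431 (109590447 to 109590537), miR-433 (109591715 to 109591838), miR-127 (109592846 to 109592915), miR-434 (109594506 to 109594599) and miR-136 (109595327 to 109595388). All were inside Rtl1 (109564900 to 109604418), which is read from the minus strand. The mature sequences (RefSeq, GRCm38.p6) are given 5′ to 3′ because the seed, bases 2 to 8 in capitals, sets the targets outside Rtl1 and because the whole sequence fixes the site in Rtl1.
mmu-miR-431-5p: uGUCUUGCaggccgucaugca
mmu-miR-431-3p: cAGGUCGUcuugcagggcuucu
mmu-miR-433-5p: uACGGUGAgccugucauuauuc
mmu-miR-433-3p: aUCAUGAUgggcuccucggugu
mmu-miR-127-5p: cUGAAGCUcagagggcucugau
mmu-miR-127-3p: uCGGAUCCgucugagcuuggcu
mmu-miR-434-5p: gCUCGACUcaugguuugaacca
mmu-miR-434-3p: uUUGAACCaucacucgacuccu
mmu-miR-136-5p: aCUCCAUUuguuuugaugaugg
mmu-miR-136-3p: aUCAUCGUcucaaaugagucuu

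The 10 seeds were all different, and no other miRNA with a sequence in the RefSeq table (1675 of the 1966) carried one of them. Hence the members form no seed family, and what they share in sequence is the match to Rtl1. The full reverse complement of every member was found in the coding part of the last exon of all 3 coding Rtl1 transcripts (GENCODE vM39), and the only other gene that held one was Mir3071, the hairpin on the other strand at miR-136. The site of miR-127-3p illustrates the pairing. It starts at base 2495 of the coding sequence and is written 5′ to 3′ with the bases opposite the seed in capitals.
Rtl1 site of miR-127-3p: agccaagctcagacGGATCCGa
Rtl1 is read in the reverse order of the hairpins. The sites therefore began at the start of the coding sequence with miR-136 (base 17 for the 3p arm and base 52 for the 5p arm) and ended with miR-431 (bases 4881 and 4925) in a reading frame of 1744 codons. Between them lay the sites of miR-434 (818 and 855), miR-127 (2495 and 2529) and miR-433 (3602 and 3654). GC content ran from 36.4% in both miR-136 arms to 59.1% in miR-431-3p and miR-127-3p.

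The counts of the miR-136 arms cannot be assigned to a strand. MiR-3071-5p, which faces miR-136-3p, had the identical count in 7 of 12 libraries and differed by at most 17 counts in the others. MiR-3071-3p was at 1.0 to 1.01 times the count of miR-136-5p. The strand setting of the counting is not given in the sources used here, so small fragments of Rtl1 mRNA also cannot be told apart from miRNA reads at any of the 5 hairpins. MiR-432, a hairpin name also placed in this row, had 0 counts in every library, and the miR-3070 forms next to it held at most 140 counts together in a library.

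Library totals ranged from 20363495 to 53126984 counts, and the P90 libraries were the deepest. In these, miR-1a-3p, the main miRNA of striated muscle, held at least 52.98% and up to 56.8% of the counts, compared with 16.0 to 30.8% at the younger ages. Libraries were scaled with the trimmed mean of M-values (TMM), and levels are given as normalized CPM (counts scaled to the library size). The log2 fold change (log2FC) and adjusted P value (Padj) of each miRNA came from one edgeR quasi-likelihood model of all 12 libraries, adjusted over the 809 miRNAs, and Padj under 0.05 counted as a call. Sequence composition differed between ages: the log2 level of a miRNA moved with its GC content by 0.377 to 0.561 per 10 GC points in the P14 libraries, by -0.591 to -0.380 in the P90 libraries and by -0.012 to 0.075 at P1 and P5. Results that changed when this trend was removed are given both ways.

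At birth the Rtl1 antisense miRNAs were abundant in muscle. Together they took 6.48, 6.81 and 6.75% of all counts in the 3 P1 libraries, 5.83, 6.07 and 6.33% at P5 and 5.75, 7.53 and 5.39% at P14. At P90 they took 0.0501, 0.0302 and 0.0313%. Every P5 library was below every P1 library, the P14 libraries overlapped with both, and every adult library was far below all of these. An exact permutation test over the 15400 partitions of the libraries gave p = 0.0105 for a difference across the ages (Padj = 0.0157 over 3 quantities of this kind). In raw terms the summed count was 1097027 to 2119765 in a young library and 15202 to 21914 in an adult one, although the adult libraries were deeper.

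At P1 the highest members were miR-434-3p at 12153 ± 312 normalized CPM (mean ± SD, n = 3) and miR-127-3p at 11357 ± 863, and their libraries overlapped. Next came miR-431-5p at 7108 ± 432, which overlapped with neither neighbour in the order. MiR-433-3p (3122 ± 85.9) and miR-434-5p (3082 ± 330) overlapped, as did miR-136-3p (2403 ± 358) and miR-127-5p (2270 ± 284). The minor arms miR-136-5p (509 ± 31.1), miR-433-5p (342 ± 39.8) and miR-431-3p (153 ± 12.7) followed with no overlap between them. The 3p arm was therefore the main product of 4 hairpins and the 5p arm that of miR-431. MiR-431 has been tied to the muscle stem cell factor Pax7 and to regeneration, and miR-127 is best known for repressing Rtl1 in placenta.

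**Figure D1:**
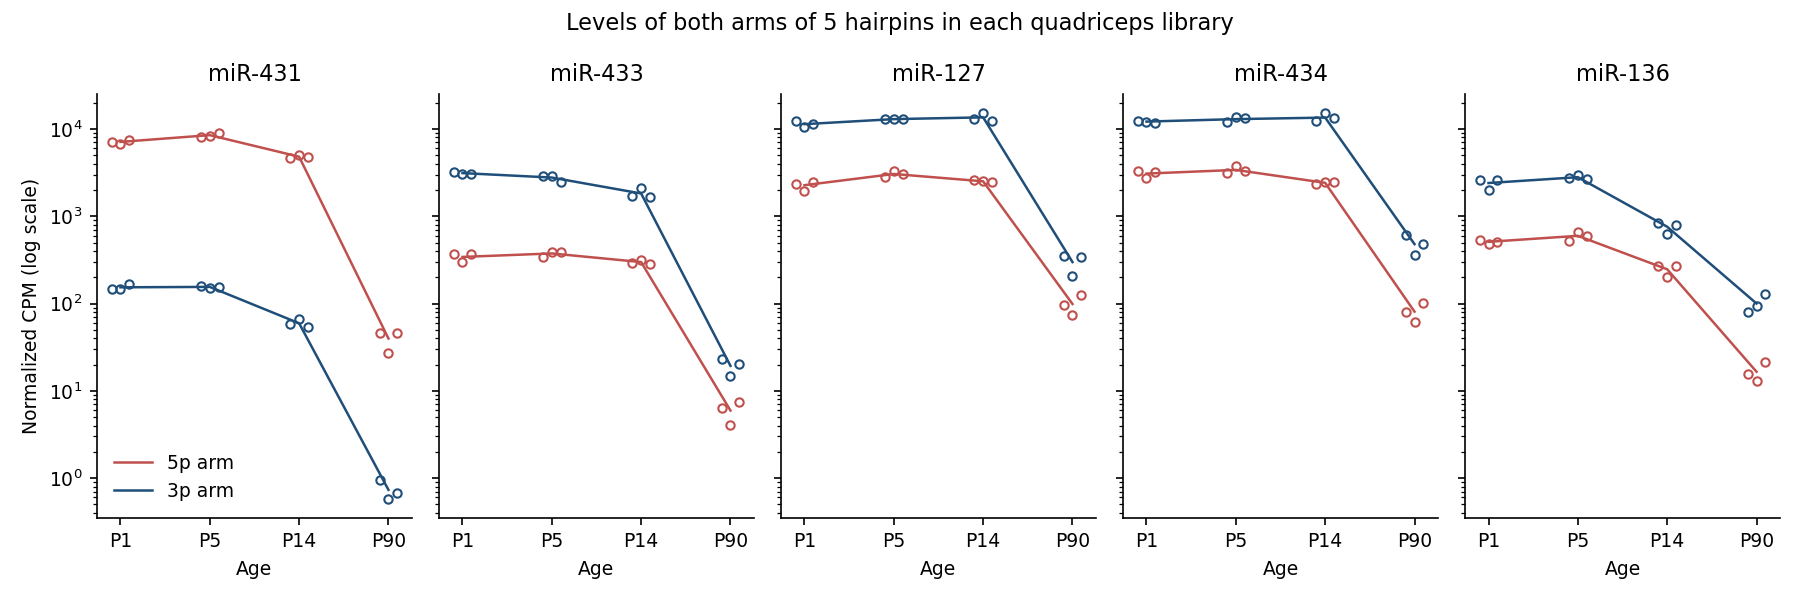
Normalized CPM (log axis) of the 5p arm (red) and the 3p arm (blue) of each hairpin by age. Circles are the 3 libraries per age and lines join the means. The levels at P1 and P5 are close, and every arm is lowest at P90, where miR-431-3p averages 0.734 CPM. At P14 the arms of miR-431 and miR-136 are the most visibly lower, while miR-127-3p and miR-434-3p overlap with P5.

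From P1 to P5 no change in a member passed the test (0 of 10 called, beside 4.45% of all miRNAs tested). Their log2FC ranged from -0.17 for miR-433-3p to 0.43 for miR-127-5p, with a median of 0.17 beside 0.0067 over all miRNAs. With libraries scaled by their totals the median was -0.13 (range -0.47 to 0.13), so the direction of this small difference depended on the scaling. MiR-127-5p was measured at 2357, 1953 and 2500 normalized CPM at P1 and at 2816, 3305 and 3027 at P5, so all P5 libraries were above the P1 libraries. In edgeR's test it was the sole member with an unadjusted p under 0.05 (0.0216, Padj = 0.193). All 3 P5 libraries were above all P1 libraries for 4 of 10 members (16.4% of all miRNAs).

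From P5 to P14 the hairpins parted. Downregulation was called for 6 of 10 members (26.3% of all miRNAs were called lower and 44.4% in either direction). These comprised both arms of miR-136 and of miR-431, which pair with the start and the end of the Rtl1 coding sequence, together with miR-433-3p and miR-434-5p. The median log2FC of the members was -0.55, beside -0.07 over all miRNAs.

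MiR-136-3p fell most. Its normalized CPM were 2707, 3000 and 2701 at P5 and 845, 629 and 800 at P14, so the ages were widely separated (log2FC = -1.89 ± 0.18 SE, Padj = 7.81e-07). Its partner miR-136-5p fell by 1.27 ± 0.18 on the log2 scale (Padj = 3.62e-05), from a mean of 597 to 247 CPM. For miR-431-5p the libraries gave 8061, 8401 and 9036 CPM at P5 and 4645, 4982 and 4812 at P14, again without overlap (log2FC = -0.82 ± 0.17, Padj = 0.0009). MiR-431-3p went from 160, 150 and 155 to 57.6, 67.1 and 53.5 CPM (log2FC = -1.38 ± 0.16, Padj = 4.33e-06).

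In the deposited counts the log2FC of the middle of the row lay nearer to 0. MiR-433-3p (log2FC = -0.61 ± 0.15, Padj = 0.0047) and miR-434-5p (log2FC = -0.49 ± 0.16, Padj = 0.0198) passed the test, but both calls were lost when libraries were scaled by their totals or by upper quartiles (adjusted P values 0.131 to 0.277), and that of miR-434-5p also without P5 replicate 2 (Padj = 0.0712). MiR-127-3p was measured at 13061, 12999 and 12845 CPM at P5 and at 13104, 15325 and 12325 at P14, and miR-434-3p at 11944, 13566 and 13383 and then at 12211, 15070 and 13224. For both, the libraries of the 2 ages overlapped (log2FC = 0.07 ± 0.17 and 0.06 ± 0.16). MiR-127-5p (-0.28 ± 0.17) and miR-433-5p (-0.33 ± 0.18) did not pass, although all P14 libraries were below the P5 libraries, and both were called lower without P90 replicate 2 (Padj = 0.0472 and 0.0267). Such a separation was seen for 8 of 10 members and for 31.4% of all miRNAs.

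The choice of members called at P14 depended on the GC trend. With the trend removed, 8 of 10 members were called lower, where 213 of 809 miRNAs were called lower and 127 higher. MiR-127-3p, which shares the highest GC content of the members with miR-431-3p, was one of the 8 (log2FC = -0.41 ± 0.15, Padj = 0.0356), as was miR-127-5p (-0.56 ± 0.17, Padj = 0.0144). MiR-434-3p (0.16 ± 0.17) and miR-433-5p (-0.22 ± 0.18) did not pass in that fit. The log2FC of miR-136-3p then was -1.41 ± 0.15 and that of miR-431-3p -1.86 ± 0.14, so that miR-431-3p showed the deepest fall. MiR-433-3p, in the middle of the row, fell by 0.89 ± 0.13 on the log2 scale and miR-136-5p, at its start, by 0.80 ± 0.17, so the ends of the row no longer stood apart from the middle. Both arms of miR-136 and of miR-431 were called lower in either fit. Against P1 in place of P5, the P14 libraries gave 5 of 10 members lower (28.8% of all miRNAs lower, 49.1% either way), namely both arms of miR-136 and of miR-431 and, again, miR-433-3p. This count depended on scaling. Upper-quartile factors gave 4 members lower and 3 higher (both arms of miR-127 and miR-434-3p), where 181 of 809 miRNAs were lower and 229 higher. A fit of the 2 ages alone gave 5 lower and 1 higher (miR-127-3p), where 222 of 735 miRNAs were lower and 180 higher.

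Between P14 and P90 all 10 members were strongly downregulated (36.7% of all miRNAs were called lower and 59.1% in either direction). The median log2FC was -5.21, beside -0.55 over all miRNAs. In no member did a P90 library reach a P14 library, a separation found downwards for 37.1% of all miRNAs.

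MiR-431-5p had 168672, 202163 and 137677 reads at P14 and 772, 509 and 556 at P90. On the normalized scale these adult libraries stood at 45.9, 27.0 and 46.3 CPM, 121-fold lower than at P14 (log2FC = -6.92 ± 0.21, Padj = 6.09e-13). The third-ranked miRNA of the row in young muscle was thereby sixth in the adult. MiR-433-3p went from 1701, 2109 and 1659 CPM to 22.9, 14.8 and 20.2, which was 94.4-fold lower (log2FC = -6.56 ± 0.20, Padj = 6.09e-13). MiR-127-3p reached 351, 205 and 339 CPM in the adult libraries, 45.5-fold lower (log2FC = -5.51 ± 0.21, Padj = 3e-12).

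MiR-434-3p stood at 603, 358 and 478 CPM in adult muscle (10134, 6744 and 5736 reads), 28.2-fold lower than at P14 (log2FC = -4.82 ± 0.19, Padj = 3.92e-12). In the deposited counts it was above miR-127-3p in 3 of 3 adult libraries, with 172, 174 and 141 counts per 100 of miR-127-3p, but with the GC trend removed these were 120, 99.5 and 85.7, so the order of these members in adult muscle depended on the trend. MiR-136-3p changed least in this interval, from 845, 629 and 800 to 80.3, 92.7 and 127 CPM (7.58-fold, log2FC = -2.92 ± 0.19, Padj = 1.17e-09). With the GC trend removed its log2FC was -4.00. At the other extreme of abundance, miR-431-3p was left with 16, 11 and 8 reads in the adult libraries, and its log2FC of -6.33 ± 0.22 rests on these.

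Over the whole interval from P1 to P90 the 10 members were lower (10 of 10 called lower, beside 41.2% of all miRNAs lower and 66.4% in either direction). The log2FC ran from -7.70 ± 0.22 for miR-431-3p, -7.48 ± 0.22 for miR-431-5p and -7.34 ± 0.20 for miR-433-3p to -4.66 ± 0.19 for miR-434-3p, -4.59 ± 0.20 for miR-136-3p and -4.52 ± 0.19 for miR-127-5p, with Padj between 1.17e-13 and 7.24e-12. The median was -5.25, beside -0.72 over all miRNAs. Expressed as a level, the adult libraries retained 0.478% (miR-431-3p) to 4.35% (miR-127-5p) of the P1 mean. The test across the 4 ages called 10 of 10 members, where 72.4% of all miRNAs were called.

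The fall was deeper at the miR-431 end of the row. Over P1 to P90 the log2FC of the 4 arms of miR-431 and miR-433 was between -7.70 and -5.86, below the 6 arms of miR-127, miR-434 and miR-136 at -5.25 to -4.52. With the GC trend removed the ranges were -7.11 to -5.99 and -5.57 to -4.17 for this interval, and -6.07 to -5.29 and -5.04 to -4.00 from P14 to P90. They overlapped in neither fit, which is a description of 5 neighbouring hairpins and not a test.

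**Figure D2:**
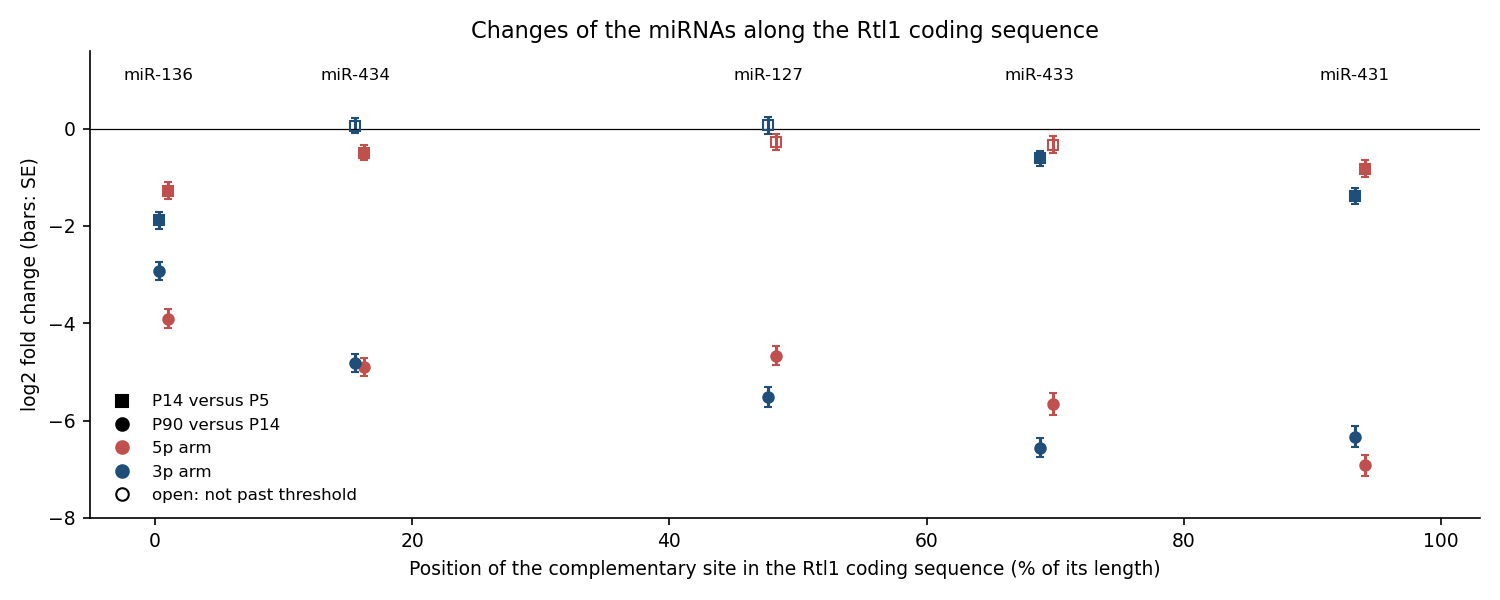
Log2FC of each member (red, 5p arm, and blue, 3p arm, with SE bars) for P14 versus P5 (squares) and P90 versus P14 (circles), placed at its complementary site along the Rtl1 coding sequence in % of its length. Filled symbols passed the test. By P14 the ends of the row were lower, with -1.89 at miR-136-3p and -1.38 at miR-431-3p, and from P14 to P90 the values deepen from miR-136 at the start to miR-431 and miR-433 towards the end. With the GC trend removed (not plotted), only the step between miR-127 and the pair of miR-433 and miR-431 remained, and miR-127-5p (-4.05) fell less than miR-136-5p (-4.97).

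The composition of the row changed accordingly. As a share of the 10 miRNAs' counts, which needs no scaling between libraries, miR-431 held 16.3, 17.08 and 17.9% at P1, 12.4, 11.6 and 12.7% at P14 and 3.596, 3.24 and 3.71% at P90. MiR-433 held 8.08, 8.45 and 7.95% at P1, 5.24, 5.55 and 5.07% at P14 and 2.24, 2.22 and 2.19% at P90. For both hairpins every P14 library was below every P1 library and every P90 library below those. The adjusted P values were 0.000216 for each (exact permutation test across the ages, adjusted over 5 hairpins), and the smallest p that the 15400 partitions allow is 6.49e-05.

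The remaining hairpins took up the difference. In order of age, miR-434 held 35.9 ± 1.13, 34.4 ± 1.16, 39.8 ± 1.36 and 49.1 ± 3.402% (mean ± SD, n = 3; exact permutation test, Padj = 0.000216). MiR-127 was at 32.0 ± 0.877, 33.7 ± 0.918, 40.2 ± 1.45 and 34.6 ± 1.94% at the 4 ages (exact permutation test, Padj = 0.00188). MiR-136 dropped from 7.14 ± 0.287% at P5 to 2.54 ± 0.558% at P14 and stood at 10.5 ± 2.75% at P90 (exact permutation test, Padj = 0.0013), with adult libraries at 7.35, 12.4 and 11.7%.

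These 3 shares moved with the GC trend, whereas those of miR-431 and miR-433 kept their course. With the trend removed the P90 share of miR-136 was 6.31 ± 1.10%, beside 7.14 ± 0.471% at P1, so that its direction from P1 to P90 turned. MiR-127 then held 33.0 ± 1.75% at P14 and 44.7 ± 2.82% at P90, and miR-434 held 47.4 ± 2.79% and 42.2 ± 3.97%. Which of miR-127 and miR-434 was the larger in adult muscle was therefore not settled. All 5 shares still differed across the ages in that setting (exact permutation test, Padj between 0.000325 and 0.00435).

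**Figure D3:**
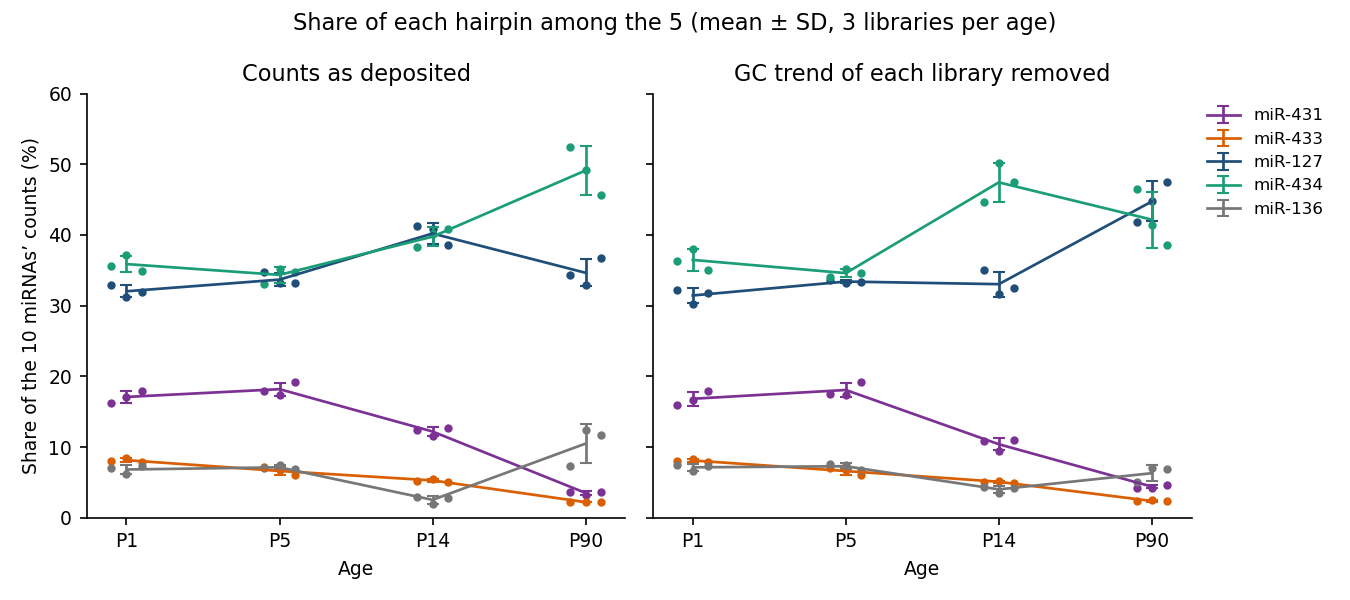
Share of each hairpin in the summed counts of the 10 miRNAs (%), by age, from the deposited counts (left) and after the GC trend of each library was removed (right). Points are libraries, lines join means and bars are SD (n = 3). MiR-431 goes from 17.09% at P1 to 3.52% at P90 on the left and from 16.8% to 4.41% on the right, while the order of miR-127 and miR-434 at P90 changes between the panels.

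The 2 arms of a hairpin are cut from one precursor and were counted in the same library, so their ratio does not depend on library scaling. Whether it depends on how much precursor was made was not tested. The ratio differed across the ages for 5 of 5 hairpins (exact permutation test on log2 ratios, Padj over the 5 hairpins 0.00966 for miR-431, 0.00162 for miR-433, 0.00227 for miR-127, 0.0107 for miR-434 and 0.00227 for miR-136). With 3 libraries an age, a single pair of ages cannot reach a p below 0.1 in this test, and steps between ages are described by whether libraries overlapped. Arm ratios of other hairpins were not tested, so 5 of 5 cannot be set beside a share over all hairpins. The miR-136 ratio rests on counts that cannot be assigned to a strand.

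In miR-433, the 5p arm had 11.3, 9.59 and 11.9 counts per 100 of the 3p arm at P1, 11.7, 13.4 and 15.7 at P5, 17.3, 14.9 and 17.3 at P14 and 27.5, 27.1 and 37.0 at P90. Every P14 library was above every P1 library, and the P90 libraries lay above all others. With the GC trend removed the values were 21.2 to 21.97 at P14 and 18.7 to 26.6 at P90, so the step from P14 to P90 was lost, while both ages stayed above P1 and P5 (9.99 to 15.6). MiR-127-5p likewise stood at 27.4, 36.0 and 37.2 counts per 100 of miR-127-3p at P90, above the 16.4 to 25.4 of the younger libraries, but with the trend removed the P90 value of replicate 1 (24.3) was within the range of the P5 libraries (22.1 to 25.4).

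MiR-434 and miR-136 went another way. The 5p arm of miR-434 fell from 25.4 ± 2.67 counts per 100 of the 3p arm at P1 to 18.0 ± 1.62 at P14, without overlap, and was at 17.2 ± 3.79 at P90. For miR-136 the 5p arm peaked at P14 with 32.1, 31.9 and 33.5 counts per 100 of the 3p arm, above all other libraries, which ranged from 14.0 to 24.0. MiR-431, the hairpin with a dominant 5p arm, had its widest ratio at P14 too (7424 to 8987 counts per 100 of the 3p arm, beside 4496 to 5823 at P1 and P5). Its adult ratio of 4627 to 6950 rests on 8 to 16 counts of the 3p arm, and its difference from P1 changed sign without the P90 replicate 3 library. The arms of miR-433, miR-127 and miR-434 differ in GC content, and removing the trend took the P1 to P90 difference of the log2 ratio from 1.48 to 0.99 for miR-433, from 0.74 to 0.49 for miR-127 and from -0.58 to -0.33 for miR-434. All 5 ratios remained past the threshold.

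**Figure D4:**
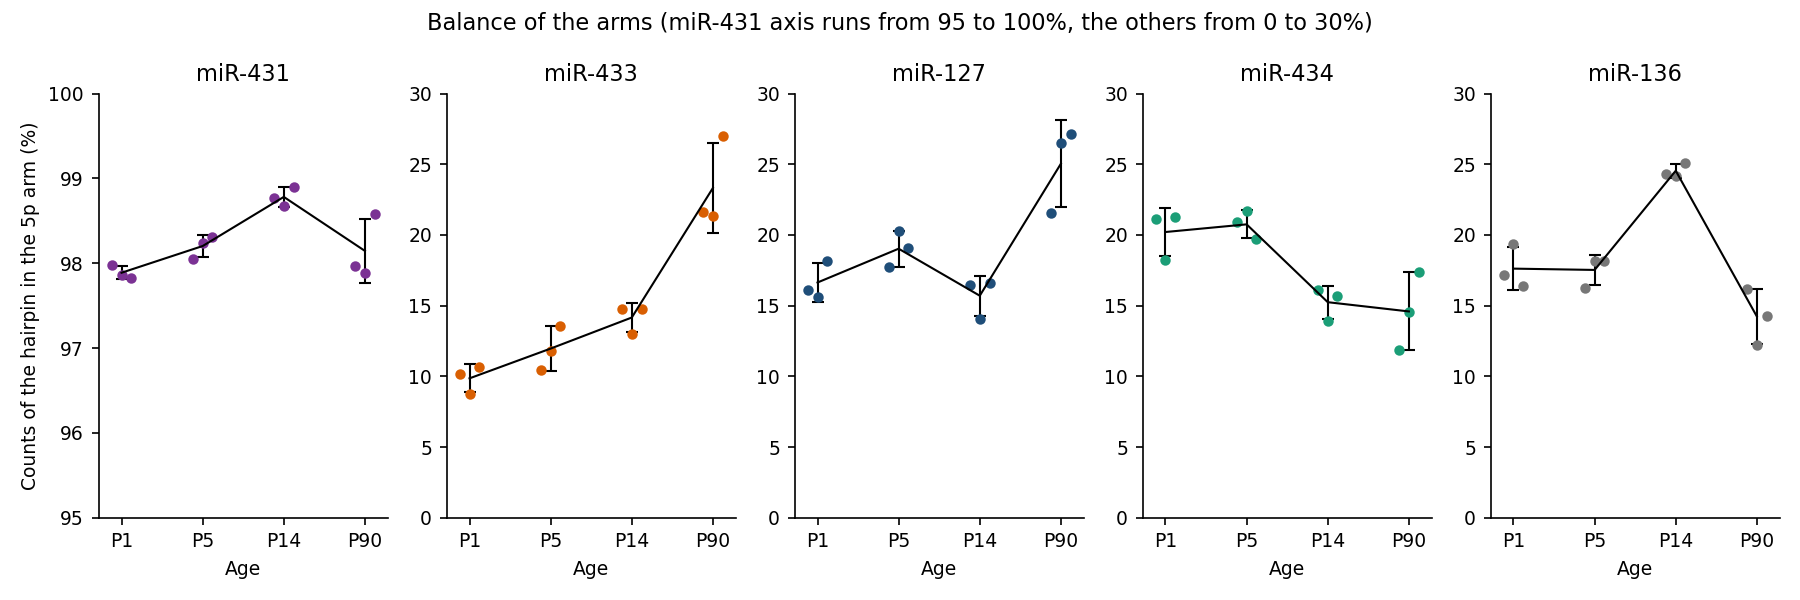
Percentage of a hairpin's counts that came from its 5p arm, by age. Points are libraries, lines join means and bars are SD (n = 3), and the axis for miR-431 covers a narrow range near 100%. The 5p share of miR-433 goes from 9.86% at P1 to 23.3% at P90, that of miR-136 is highest at P14 with 24.5%, and that of miR-431 stays between 97.8 and 98.9%.

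The neighbours in the Dlk1-Dio3 region shared the decline. One list held other hairpins near Meg3 and Rtl1, here called proximal, such as miR-770, miR-493 and miR-540 (23 tested). Another held the large miR-379 to miR-410 cluster of Mirg, a maternally transcribed noncoding RNA farther along (73 tested). From P14 to P90, 23 of 23 proximal miRNAs and 68 of 73 Mirg miRNAs were called lower (36.7% of all miRNAs), with median log2FC of -5.55 and -4.69. Because 7 and 10 of these had at most 3 counts in each adult library, the medians with such miRNAs at their bound are -4.92 and -4.33. From P5 to P14, 13 of 23 proximal and 39 of 73 Mirg miRNAs were called lower, with medians of -0.76 and -0.73. In each list 2 were called higher, beside 26.3% lower and 18.0% higher over all miRNAs.

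In counts, the ratio of the Rtl1 antisense miRNAs to the Mirg cluster differed across the ages and was highest at P14. Per 100 Mirg counts they had 47.5, 48.7 and 48.6 at P1, 54.2, 53.9 and 56.5 at P5, 79.7, 97.7 and 81.0 at P14 and 59.4, 54.6 and 48.4 at P90. The P14 libraries were above all others (exact permutation test across the ages, p = 0.00305, Padj = 0.00916 over 3). With the GC trend removed the P14 libraries had 68.3 to 78.1 and the P90 libraries 57.3 to 66.5. The P90 libraries then also lay above P1 (46.3 to 48.4) and P5 (52.2 to 56.8). The test across the ages passed (exact permutation test, Padj = 0.000195), and the P90 minus P1 difference was 0.41 in place of 0.16 on the log2 scale. The Mirg cluster itself went from 11.07 ± 0.285% of library counts at P5 to 7.19 ± 0.524% at P14, while the members were at 6.08 ± 0.252% and 6.22 ± 1.15%. Sums follow the few most abundant miRNAs, whereas a mean of log2 counts weighs every miRNA of a list alike. By that mean the difference between P90 and P1 had the opposite sign (-0.59 on the log2 scale), for a reason that was not tested. The difference across the ages passed there too (exact permutation test, Padj = 0.000195), but this test does not address P90 against P1 or the sign. Against the other proximal hairpins the members had 416 ± 9.52, 401 ± 12.8, 440 ± 21.2 and 463 ± 56.3 counts per 100 at the 4 ages, which did not pass the test (exact permutation test, p = 0.105). With the GC trend removed the P90 libraries were at 309 to 373, below the 399 or more of every younger library, and the difference across the ages passed (exact permutation test, Padj = 0.000195).

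**Figure D5:**
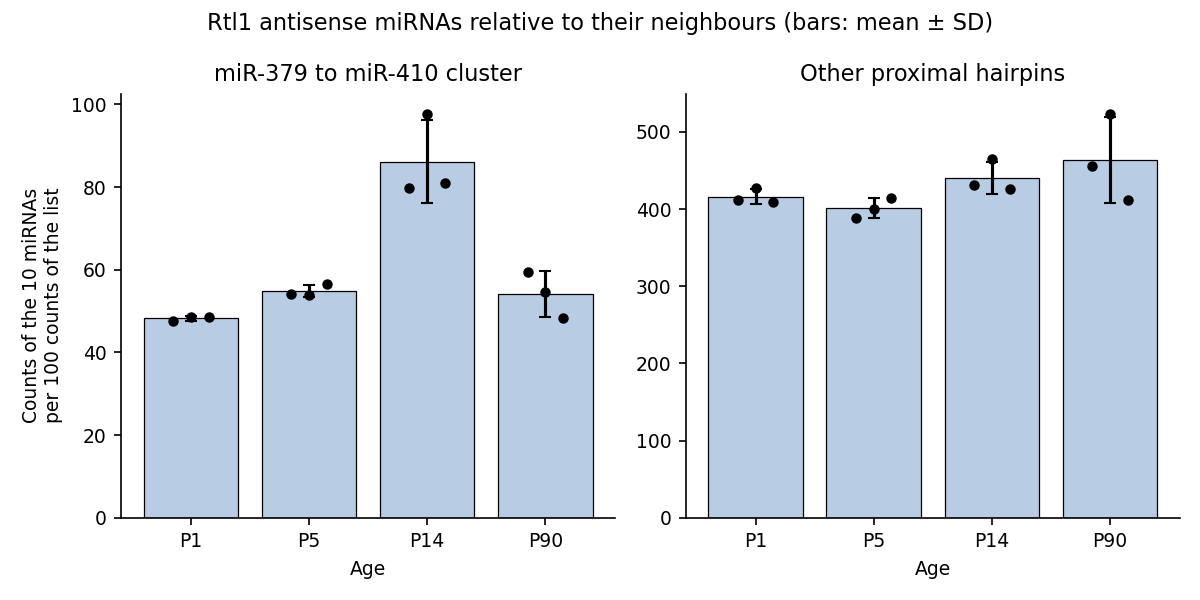
Summed counts of the 10 miRNAs per 100 counts of the miR-379 to miR-410 cluster (left) and of the other proximal hairpins (right). Bars are means with SD (n = 3), points are libraries and both axes start at 0. Against the cluster the P14 libraries stand apart at 79.7 to 97.7, while against the proximal hairpins the libraries of all ages lie between 389 and 523.

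The time course closest to the mean course of the 10 members was looked for among 340 miRNAs with a mean of at least 10 normalized CPM. The 5 most alike were miR-300-3p (r = 0.9997 over the 12 libraries), miR-381-3p (0.9988), miR-410-3p (0.9987), miR-540-3p (0.9987) and miR-411-5p (0.9984), all from the same region. These values describe libraries and a normalization that all miRNAs share, and are dominated by the gap between P90 and the younger ages. Among the members, miR-136-3p was least like the other 9 (0.948) and miR-431-5p the most (0.9995).

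Markers of other cell types also moved with age. Over all miRNAs tested, 36.7% were called lower and 22.4% higher from P14 to P90. From P1 to P90 these shares were 41.2% lower and 25.2% higher. A mesenchymal list (miR-199a-5p, miR-199a-3p and miR-214-3p) held 1.74 to 2.30% of counts at P1, 0.698 to 0.804% at P14 and 0.0586 to 0.101% at P90, and 3 of 3 were called lower from P14 to P90 with a median log2FC of -1.70. Of a neuron list (miR-124-3p, miR-9-5p and miR-128-3p) 1 of 3 was called lower, with a median of 0.54, and its share of counts went from 0.329 to 0.366% to 0.0319 to 0.0506%. Of 2 satellite cell markers 1 was called lower from P14 to P90. At P14 and at P90, only 1 of the 2 had more than 3 counts in every library. The 5 skeletal muscle markers held 24.0 to 34.2% of counts in the young libraries and 55.7 to 58.5% at P90, where miR-1a-3p alone held 52.98 to 56.8%. From P14 to P90, 3 of the 5 were called higher and 1 lower. From P1 to P90, 2 were called higher and 2 lower. Endothelial (2), smooth muscle (2) and blood (5) lists had no member called lower from P14 to P90. Called higher were 2 of 2 endothelial, 1 of 2 smooth muscle and 5 of 5 blood miRNAs (22.4% of all miRNAs). The share of counts of each of these lists was nevertheless lower at P90 than at P14. The endothelial list held 1.202 to 1.297% at P14 and 0.3208 to 0.4525% at P90. At these ages the smooth muscle list held 3.495 to 3.872% and 1.81 to 2.421%. The blood list held 0.04938 to 0.06105% and 0.01356 to 0.02502%. The part of these changes in the decline of the Rtl1 antisense miRNAs was not tested.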

How the data were processed

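Small RNA libraries were prepared from 200 ng of total quadriceps RNA. Per the labels and the study's methods, the authors selected reads of 10 to 35 nt with cutadapt 1.18, aligned them to GRCm38 with Bowtie2 2.4.1 and counted them with featureCounts 2.0.1 on the miRBase annotation. The deposited values are raw counts per mature miRNA. How reads with several alignments and the strand were treated is not given in the sources used here. The counts carry no molecular identifiers, so depth speaks for counting error only, and nothing states that libraries of an age came from separate litters.

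From the counts of 12 libraries (20363495 to 53126984 per library), edgeR 4.0.16 in R 4.3.3 was run with filterByExpr, TMM factors and the quasi-likelihood F-test (2-sided) with a mean per age, adjusted by Benjamini-Hochberg over 809 miRNAs. Normalized CPM at P90 refer to TMM factors of 0.247 to 0.384, so they exceed the raw share there. Arm ratios (log2 with 0.5 added to each count), hairpin shares and list ratios were compared across the ages by exact permutation, with the sum of squares between ages as statistic. The steps were tested on simulated data. The GC trend was the slope of the log2 level on the GC content of the mature sequence, fitted in each library on 309 miRNAs (a sequence was available for 85% of those tested). Positions came from RefSeq for GRCm38. Those of GENCODE vM39, which uses another build, were used only within transcripts.

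Alternatives were other scalings (RLE, library totals, upper quartiles), no filter, DESeq2 1.42.0, fits of 2 ages, each library left out, a replicate block, the GC trend removed, another pseudocount (3), mean log2 counts and antisense miRNAs left out. The members, lists and naming rule (all members, and the 5 miRNAs with the most similar course) were chosen with earlier results of these data known.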

Additional observations from a re-analysis of the deposited data

How the results depend on the processing

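The counts of members called were the same from P1 to P5 (0), P14 to P90 (10), P1 to P90 (10) and across the ages (10) under each alternative run, and the 440 repeats of the members' P90 log2FC kept direction and call. From P1 to P14 the count was 5 to 7, of which 3 were higher with upper quartiles and 1 in the fit of 2 ages. From P5 to P14 it was 4 to 8 (5 to 8 with a library left out). Upper quartiles moved the median log2FC of all miRNAs from P1 to P90 to 1.177 and library totals to -2.97, and members ranged from -5.81 to -2.65 and from -9.94 to -6.82. MiR-434-5p lost its P14 call without P5 replicate 2 (-0.41), and without P90 replicate 2 miR-433-5p (-0.36) and miR-127-5p (-0.31) gained one.

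The P14 versus P5 value of miR-127-3p was negative with RLE factors (-0.0003), no filter (-0.0391), DESeq2 (-0.0039), without P14 replicate 2 (-0.0582, up to 0.0966 over the libraries left out) and with the GC trend removed, alone (-0.4088) or with the replicate block (-0.4082). That of miR-434-3p was negative with RLE factors (-0.0109), no filter (-0.0493) and DESeq2 (-0.0145), without P5 replicate 1 (-0.0319) and without P14 replicate 2 (-0.0566, up to 0.0993 over the libraries left out). The P90 minus P1 log2 arm ratio of miR-431 (0.149) became -0.131 with a pseudocount of 3, and -0.0258 to 0.256 with a library left out, negative without P90 replicate 3. The share of miR-136 (3.66 points higher) became -0.828 with the GC trend removed. Members over Mirg (0.161) became -0.590 with mean log2 counts. Members over the other proximal hairpins (0.150, not past the threshold) became -0.275 with the GC trend removed and -0.852 with mean log2 counts. In both settings the latter ratio passed the test across the 4 ages, which does not test the P90 minus P1 difference or its sign. This quantity also passed without P90 replicate 3 (0.232; 0.0586 to 0.232 over the libraries left out), with the replicate block (0.150) and with later-named antisense miRNAs left out of the lists (0.430), an alternative chosen after seeing the data. The cause of these changes was not tested.

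Replicate numbers share only a number: 6 of 18 same-number pairs correlated above 0.1 (-0.345 to 0.249), and 2 of 12 libraries correlated best with their own number. The block moved no other call. At P90 depth limits miR-431-3p, with 8 to 16 counts.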
